A study of Mus musculus with 6 samples.

Results

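Collagen chains are the protein strands that wind around each other to form the collagen molecules of the extracellular matrix. The genes for them were taken as all symbols made of Col, a type number, the letter a and a chain number, which gave 44 of the 46603 genes in the deposited counts. Poly(A) RNA had been sequenced from neurosphere-derived EGC cultures (enteric glial cells are the glia of the intestine). The cells came from the whole gut of C57BL/6J embryos at E14.5, and they were grown for 1 week as free-floating neurospheres and then as an attached layer in serum. The control group held 3 cultures left without treatment, and the LPS group held 3 cultures that received 100 ng/ml of lipopolysaccharide (a component of the bacterial outer membrane) for 12 h. All 6 libraries came from the same strain, age and culture scheme, no cell sort was described, and the labels do not say whether cultures with the same replicate number came from the same preparation. The comparison of LPS with control cultures asks here which collagen chains change their transcript level in activated cultures.

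As background, fibrillar chains such as those of collagen I, III and V build the tensile fibrils of connective tissue. Chains of collagen IV form the sheet-like network of basement membranes, which surrounds glia, smooth muscle and vessels, and collagen VI forms beaded filaments next to it. The other chains attach to fibrils (FACITs), anchor or seal basement membranes, or span the cell membrane. Collagen is made mainly by mesenchymal cells, smooth muscle and glia of the Schwann cell lineage, and gut macrophages and stromal cells release enzymes that cut it.

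The stretches around the transcription starts of the chains that carry the results below are shown first. RefSeq windows of 300 bases (250 before and 50 after the annotated start, build GRCm38.p6) were found for 35 of the 44 chains, 38 windows in all. Those of 5 chains called different between the groups are printed with that of Col4a1, whose start lies 21 bp from that of Col4a2 on the other strand. They are given 5′ to 3′ on the strand of the gene, and capitals mark matches, on either strand, to the letters searched.
Col5a3, chr9:20815018-20815317, minus strand, carries 1 CCAAT match and 3 GC box matches.
Col5a3: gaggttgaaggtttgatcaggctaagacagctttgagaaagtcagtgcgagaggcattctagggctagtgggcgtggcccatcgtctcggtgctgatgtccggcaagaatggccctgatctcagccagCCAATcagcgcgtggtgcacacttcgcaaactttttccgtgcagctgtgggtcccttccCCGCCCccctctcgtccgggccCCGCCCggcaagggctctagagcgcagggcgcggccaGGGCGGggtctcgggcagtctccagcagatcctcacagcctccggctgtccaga
Col24a1, chr3:145292222-145292521, plus strand, carries none of the letters searched.
Col24a1: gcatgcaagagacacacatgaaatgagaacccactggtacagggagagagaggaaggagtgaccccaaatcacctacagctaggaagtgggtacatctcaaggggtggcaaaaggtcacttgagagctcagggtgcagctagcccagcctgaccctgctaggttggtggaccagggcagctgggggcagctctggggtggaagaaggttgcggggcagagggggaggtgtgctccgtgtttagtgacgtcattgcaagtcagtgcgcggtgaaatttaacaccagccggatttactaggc
Col25a1, chr3:130180595-130180894, plus strand, carries 1 CCAAT match and 2 GC box matches.
Col25a1: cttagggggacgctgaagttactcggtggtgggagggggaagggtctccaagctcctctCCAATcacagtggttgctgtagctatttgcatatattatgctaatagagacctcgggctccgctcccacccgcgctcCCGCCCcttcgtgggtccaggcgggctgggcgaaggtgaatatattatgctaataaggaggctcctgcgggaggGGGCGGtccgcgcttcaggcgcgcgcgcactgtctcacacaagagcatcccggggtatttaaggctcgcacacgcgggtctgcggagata
Col8a2, chr4:126286544-126286843, plus strand, carries 4 GC box matches, of which the last 2 overlap.
Col8a2: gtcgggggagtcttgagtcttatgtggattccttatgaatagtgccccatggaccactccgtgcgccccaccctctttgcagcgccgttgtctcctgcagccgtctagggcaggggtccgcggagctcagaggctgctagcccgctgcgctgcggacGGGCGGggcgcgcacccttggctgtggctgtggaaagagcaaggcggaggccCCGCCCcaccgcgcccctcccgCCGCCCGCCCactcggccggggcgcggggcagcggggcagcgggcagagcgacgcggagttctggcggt
Col4a5, chrX:141475169-141475468, plus strand, carries 1 CCAAT match and 1 GC box match.
Col4a5: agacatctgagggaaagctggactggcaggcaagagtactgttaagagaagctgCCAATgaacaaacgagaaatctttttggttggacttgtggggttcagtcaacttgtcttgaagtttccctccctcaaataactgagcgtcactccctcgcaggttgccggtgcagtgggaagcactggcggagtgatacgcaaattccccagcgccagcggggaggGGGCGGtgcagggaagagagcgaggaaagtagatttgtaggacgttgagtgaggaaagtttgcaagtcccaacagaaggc
Col4a1, chr8:11312777-11313076, minus strand, carries 1 CCAAT match and 1 GC box match.
Col4a1: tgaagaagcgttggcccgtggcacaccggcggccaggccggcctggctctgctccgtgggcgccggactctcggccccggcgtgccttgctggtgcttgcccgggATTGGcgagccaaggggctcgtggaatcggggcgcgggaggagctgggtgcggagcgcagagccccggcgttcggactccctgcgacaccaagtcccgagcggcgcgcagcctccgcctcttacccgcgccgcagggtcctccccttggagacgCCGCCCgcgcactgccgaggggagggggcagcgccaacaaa

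Both strands were searched for fixed letters. The NF-κB letters were GGG and TTTCC with 2 bases of any kind between them, the interferon letters were GAAA and again GAAA with 2 bases between them, and the STAT letters were TTC and GAA with 3 bases between them. The AP-1 letters were TGANTCA. The GC box, GGGCGG, was found in 23 of the 38 collagen windows (60.5%) and in 35.7% of all 32851 windows of the same length. Base content was not matched in this comparison. Median GC was 52.7% over all windows, and 56.3% to 74% in those of Col24a1, Col25a1, Col5a3, Col8a2 and Col4a1, while that of Col3a1 had 37.7%. The 23 count Col6a2 more than once and hold the overlapping windows of Col4a1 and Col4a2, so they are not independent. CCAAT was found in 13 collagen windows (34.2% against 37.4% of all), and TATAAA in 5 (13.2% against 13.6%). The NF-κB letters occurred in 1 collagen window, that of Col17a1 (2.63% against 1.63% of all). The AP-1 letters occurred in 1 window, that of Col6a1 (2.63% against 7.81%), and the STAT letters in the windows of Col28a1 and Col6a5 (5.26% against 8.3%). The interferon letters occurred in 0 collagen windows and in 3.44% of all. Of the chains with a changed transcript level, none printed above held the NF-κB, AP-1, interferon or STAT letters in this window.

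Total counts ranged from 18775316 to 23664312 per library. Levels are CPM, counts per 1e6 counts of a library size corrected by trimmed mean of M-values (TMM), and a chain with 3 counts or fewer, between 0.124 and 0.167 CPM, was treated as at the detection floor. Counting intervals and floors cover counting error only. Each of 5 genes known to respond to LPS (Ccl2, Il6, Tnf, Cxcl10 and Nos2) was higher in LPS, with adjusted p-values of 0.000656 to 0.00723 in the edgeR quasi-likelihood test. Limma-voom called 4 of them. The rise was uneven, and LPS replicate 3 had the lowest LPS level of each gene. Their summed level was 55.9 to 60.2 CPM in control and 4690, 5333 and 1729 CPM in LPS replicates 1, 2 and 3. Nos2 was at 771, 961.5 and 54.1 CPM in these LPS cultures. The libraries numbered 3 stood apart from the others. The summed level of 12 macrophage markers was 4107, 5321 and 12623 CPM in the control cultures and 4044, 5240 and 20205 CPM in the LPS cultures, each in the order of the replicate numbers. Glial markers were present (Sox10 at 73.8 to 100.7 CPM in control and 75.9 to 78.2 CPM in LPS), and so were smooth muscle and mesenchymal markers, so the cultures were not of 1 cell type.

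Of the 44 chains, 42 passed the filter on low counts and were tested. Col2a1, the cartilage fibril chain, had at most 2 counts in any library and was under the floor throughout. Col6a6, a minor collagen VI chain, had 16, 28 and 5 counts in the control cultures and 1, 1 and 0 in the LPS cultures, and was not tested with all libraries. It passed the filter in some alternatives, and did so through its control counts alone. It was called lower without control replicate 3 (edgeR adjusted p = 0.0215), without both libraries numbered 3 (edgeR adjusted p = 0.00375) and with no filter on low counts (edgeR adjusted p = 0.0496). It was not called when an LPS culture was left out (edgeR adjusted p = 0.0784 to 0.137). Passing the filter through the control counts alone selects for a fall, so the calls of Col6a6 in the filtered fits were not taken as support. In all, 38 chains were over the floor in every library.

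The collagen chains together took up 29815, 29500 and 29229 CPM in control replicates 1, 2 and 3, and 24940, 25559 and 24488 CPM in LPS replicates 1, 2 and 3. The groups did not overlap. The group means of this sum gave a log2 ratio of -0.24 (LPS against control). As a share of the unscaled counts of the library, the chains made up 3.22%, 3.13% and 2.99% in control and 2.41%, 2.44% and 2.24% in LPS, or 3.11% ± 0.117 and 2.37% ± 0.107 (SD, n = 3 each). The 8 most abundant chains accounted for 88% to 90.1% of the sum in each library. The scaling of the libraries sets the size of this difference: upper-quartile factors gave a log2 ratio of -0.34, and library size alone gave -0.39.

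**Figure D1:**
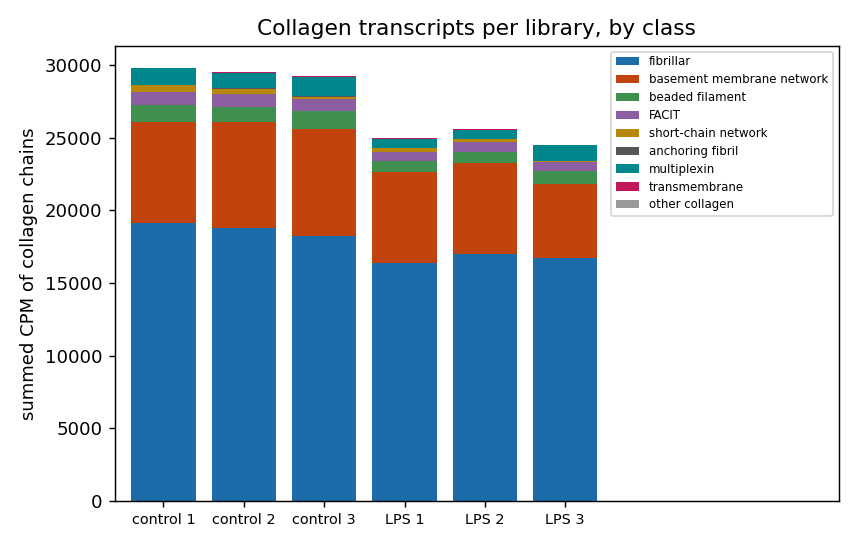
Summed CPM of the collagen chains in each of the 6 libraries, with the bar divided by collagen class. The 3 control bars lie between 29229 and 29815 CPM and the 3 LPS bars between 24488 and 25559 CPM, and fibrillar and basement membrane chains make up most of each bar.

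Col1a1, the alpha 1 chain of collagen I (chr11:94936224-94953042, plus strand, GRCm38), was the most abundant chain per length, at 889.3 CPM per kb of exon in control and 840.4 CPM per kb in LPS. Its level was 5635, 5606 and 6269 CPM in control replicates 1, 2 and 3 and 5445, 5623 and 5480 CPM in LPS replicates 1, 2 and 3. The groups overlapped, and the log2 fold change (LPS against control) was -0.08 (SE 0.11, edgeR adjusted p = 0.663). Col3a1, the chain of the fine reticular fibrils of the gut wall (chr1:45311538-45349706, plus strand), ranked the third per length in control and the fourth in LPS. It was at 4921, 4674 and 3617 CPM in control and 3563, 3647 and 3705 CPM in LPS. Control replicate 3 lay within the LPS values (log2 fold change -0.28, SE 0.15, edgeR adjusted p = 0.256), and the call was made without both libraries numbered 3 (-0.39, edgeR adjusted p = 0.00113). Col4a1, a chain of the basement membrane network found in most tissues (chr8:11198423-11312826, minus strand), ranked the second in both groups. It was at 4016, 4069 and 4148 CPM in control and 3533, 3426 and 2782 CPM in LPS. All LPS values lay under all control values, but the difference did not pass the threshold with all libraries (log2 fold change -0.33, SE 0.13, edgeR adjusted p = 0.143). Of the 7 chains at 1000 CPM or more in control (Col1a1, Col3a1, Col4a1, Col1a2, Col4a2, Col5a2 and Col5a1), 0 were called by this test, and their log2 fold changes ran from -0.49 to -0.08. Before adjustment 2 of the 7, Col4a1 and Col5a1, had an edgeR p under 0.05, a threshold at which the share of all genes was not counted. DESeq2 called 1 lower (Col5a1), while the edgeR exact test and limma-voom called 0. Of all genes, these tests called 11%, 7.99% and 6.05% lower. Without both libraries numbered 3, 4 of the 7 were called lower, namely Col3a1, Col4a1 (-0.19, edgeR adjusted p = 0.0128), Col5a2 (-0.28, edgeR adjusted p = 0.00633) and Col5a1 (-0.41, edgeR adjusted p = 0.000617), where 20.4% of all genes were called lower.

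At an adjusted p under 0.05, 2 chains were higher in LPS and 5 were lower, 7 of 42 in all. This share of 16.7% lay near the 15.8% of all 15226 genes tested. By direction, 4.76% of the chains were higher against a background of 9.09%, and 11.9% were lower against 6.71%. The log2 fold change was under 0 in 34 of 42 chains, with a median of -0.41, beside a median of -0.02 over all genes tested. Of the chains with no overlap between the groups, 4 were higher (9.52% against 19.3% of all genes) and 15 were lower (35.7% against 19.4%). Among the 5 chains called lower, 4 had a fall of 2-fold or more. DESeq2, a second count test, called 2 chains higher and 10 lower, while it called 13.7% of all genes higher and 11% lower (24.6% together).

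**Figure D2:**
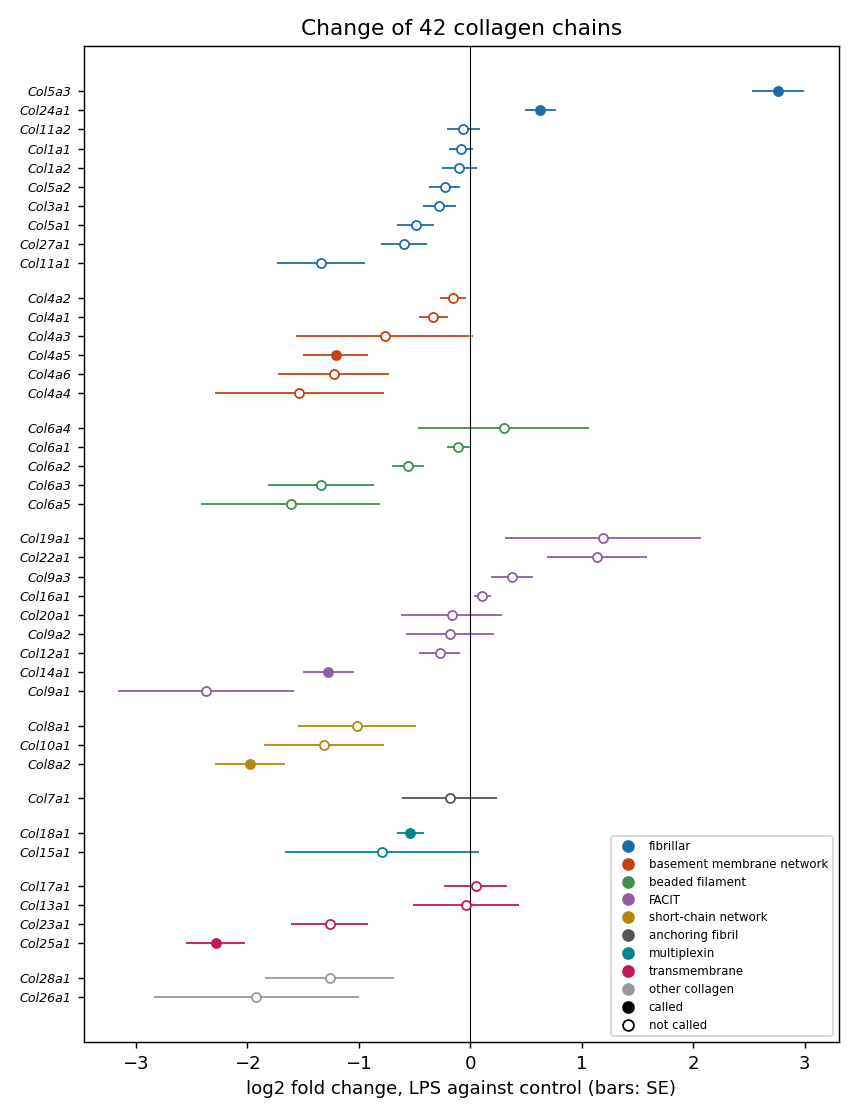
Log2 fold change of each of the 42 tested collagen chains (LPS against control, horizontal axis; bars are the SE), grouped and coloured by class, with filled points for chains called at an adjusted p under 0.05. Col5a3 is the point far to the right at 2.76, Col25a1 and Col8a2 are the filled points farthest to the left at -2.28 and -1.97, and 34 of the 42 points lie left of 0.

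Col5a3 rose with LPS. It encodes the alpha 3 chain of collagen V, a minor fibrillar collagen that takes part in starting fibrils (ENSMUSG00000004098, chr9:20770050-20815067, minus strand). Its level was 49.2, 48.7 and 76.2 CPM in control replicates 1, 2 and 3, and 388.2, 461.6 and 331.8 CPM in LPS replicates 1, 2 and 3. Each LPS value was over 4 times each control value, and the mean was 6.79-fold higher in LPS (log2 fold change 2.76, SE 0.23, edgeR adjusted p = 0.00201). It was called in 16 of 16 alternative analyses, with an adjusted p of 0.00187 to 0.0194 when any 1 library was left out. Per length it moved from rank 19 among the chains in control to rank 10 in LPS. The other collagen V chains did not move with it: Col5a1 and Col5a2 had log2 fold changes of -0.49 (edgeR adjusted p = 0.097) and -0.23 (edgeR adjusted p = 0.31).

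Col25a1 fell with LPS. It encodes a membrane-spanning collagen known from neurons, where its shed ectodomain is found in amyloid plaques (ENSMUSG00000058897, chr3:130131501-130599877, plus strand). The window printed above lies inside this span, downstream of its first base. It was at 10.6, 13.3 and 13.3 CPM in control and at 2.12, 2.01 and 3.51 CPM in LPS. The groups were far apart, and the mean was 4.88-fold higher in control (log2 fold change -2.28, SE 0.26, edgeR adjusted p = 0.00516). This call too was made in 16 of 16 alternatives, with an adjusted p of 0.00125 to 0.0369 when any 1 library was left out. The summed level of 7 neuron markers, 270.6 to 477.7 CPM in control and 287.1 to 460.7 CPM in LPS, overlapped between the groups.

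Col8a2, a short-chain network collagen known from the basement membrane of the corneal endothelium (ENSMUSG00000056174, chr4:126286793-126314330, plus strand), fell as well. It was at 32.5, 28.8 and 17.8 CPM in control and at 9.14, 5.46 and 5.5 CPM in LPS. The lowest control value, that of replicate 3, was still above the highest LPS value (log2 fold change -1.97, SE 0.32, edgeR adjusted p = 0.0144). The call was lost without control replicate 1 (adjusted p = 0.0601), control replicate 2 (0.0731) or LPS replicate 2 (0.0691) in edgeR.

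Col14a1, a FACIT that binds to the surface of collagen I fibrils (ENSMUSG00000022371, chr15:55307750-55520803, plus strand), was at 343.1, 303.1 and 214.8 CPM in control and at 108.6, 100.2 and 147.6 CPM in LPS. The libraries numbered 3 were the nearest to each other, and the groups did not overlap (log2 fold change -1.27, SE 0.23, edgeR adjusted p = 0.0195). The adjusted p in edgeR rose to 0.071 without control replicate 1, 0.0893 without control replicate 2, 0.0766 without LPS replicate 1 and 0.0825 without LPS replicate 2.

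Col4a5, a basement membrane chain of kidney, eye and smooth muscle (ENSMUSG00000031274, chrX:141475385-141689234, plus strand), was at 376.5, 377.5 and 212.8 CPM in control and at 162, 156.4 and 100.3 CPM in LPS. Replicate 3 was the lowest of each group, and the groups did not overlap (log2 fold change -1.21, SE 0.29, edgeR adjusted p = 0.0434). This call was near the threshold and rested on all libraries but control replicate 3. The adjusted p in edgeR was 0.137 and 0.155 without control replicates 1 and 2, and 0.0999, 0.122 and 0.0567 without LPS replicates 1, 2 and 3.

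Col18a1, the basement membrane multiplexin whose end fragment is endostatin (ENSMUSG00000001435, chr10:77052178-77166548, minus strand), had the smallest fall among the called chains. It was at 936.4, 830.1 and 714.6 CPM in control and at 553, 555.7 and 599.6 CPM in LPS. The groups did not overlap (log2 fold change -0.54, SE 0.12, edgeR adjusted p = 0.0362). The adjusted p in edgeR was 0.116 and 0.138 without control replicates 1 and 2, and 0.122 and 0.136 without LPS replicates 1 and 2.

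Col24a1, a fibrillar chain known from developing bone (ENSMUSG00000028197, chr3:145292472-145552011, plus strand), was the other chain that rose. It was at 17, 13.6 and 18.9 CPM in control and at 24.6, 25.4 and 26.5 CPM in LPS. The LPS cultures lay close together above all control cultures, and the mean was 1.55-fold higher (log2 fold change 0.63, SE 0.14, edgeR adjusted p = 0.0348). The adjusted p in edgeR was 0.111 and 0.0915 without control replicates 1 and 2, and 0.0962, 0.116 and 0.0529 without LPS replicates 1, 2 and 3. With library size alone as the scaling it was 0.0523.

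**Figure D3:**
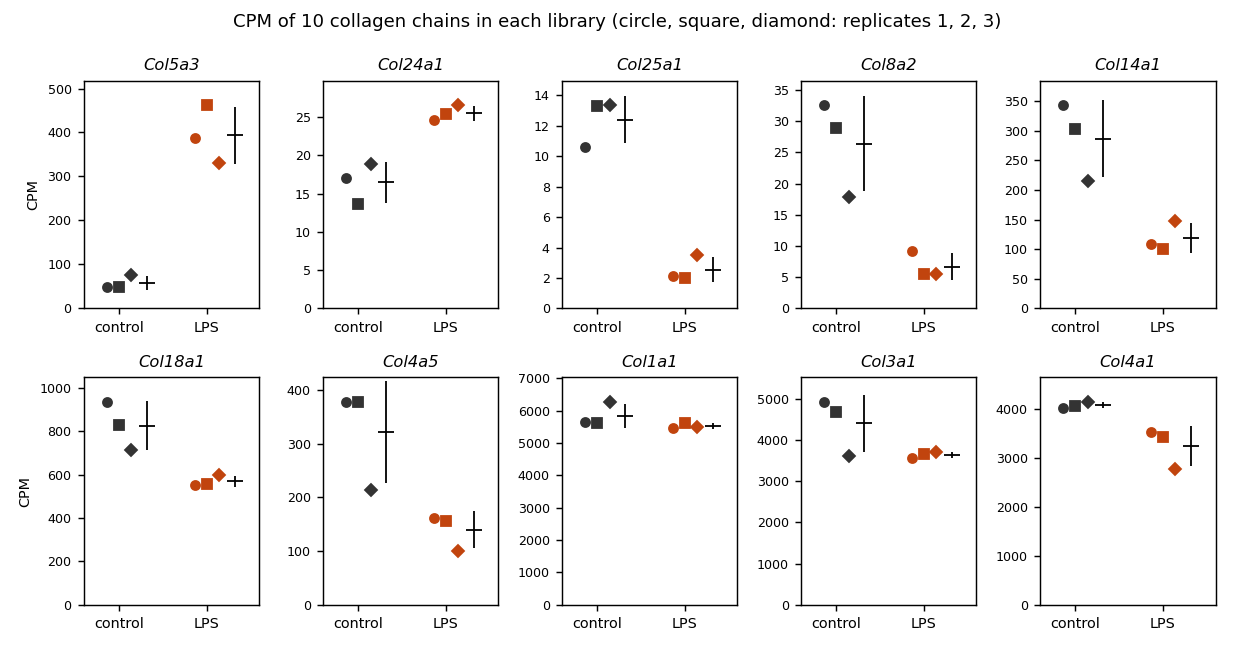
CPM of the 7 called collagen chains and of Col1a1, Col3a1 and Col4a1 in each library (vertical axis from 0; symbols are replicates 1, 2 and 3; the cross and bar beside them are the mean and SD, n = 3). Col5a3 rises from 48.7 to 76.2 CPM in control to 331.8 to 461.6 CPM in LPS, while the Col1a1 points of the groups overlap.

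By class, the fibrillar chains split. Of 10 tested, 2 rose (Col5a3 and Col24a1) and 0 fell in the edgeR test. DESeq2 called 2 lower, the edgeR exact test 1 and limma-voom 0, where 11%, 7.99% and 6.05% of all genes were called lower. At an unadjusted p under 0.05, 3 were lower (Col11a1, Col5a1 and Col27a1). The share of all genes at that threshold was not counted. Meanwhile Col1a1, Col1a2, Col3a1 and Col11a2, the last a cartilage chain, lay between -0.28 and -0.06 on the log2 scale with adjusted p-values of 0.256 to 0.812. Col11a1, which is built into fibrils with collagen V, was at 261.1, 264 and 121 CPM in control and 99.7, 103 and 52.8 CPM in LPS. Its log2 fold change of -1.34 did not pass without the replicate block (edgeR adjusted p = 0.0721) and passed with it (edgeR adjusted p = 0.000996). Col5a1 likewise had an adjusted p of 0.012 with the block in edgeR. Without control replicate 3 Col11a1 was called (edgeR adjusted p = 0.0322), and so was Col27a1 (0.0471 in edgeR, against 0.113 with every library).

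Of the 6 collagen IV chains, Col4a5 alone passed the quasi-likelihood test without the block, with log2 fold changes of -1.53 to -0.15. The genes lie in 3 head-to-head pairs. Col4a1 and Col4a2, which form the network of most tissues, start 21 bp apart on chromosome 8 and had log2 fold changes of -0.33 and -0.15. Col4a5 and Col4a6 start 1309 bp apart on chromosome X and had -1.21 and -1.22. Col4a3 and Col4a4, of the kidney filter and other special membranes, start 72 bp apart on chromosome 1, were at 0.207 to 1.81 CPM in control, and had -0.77 (SE 0.79) and -1.53 (SE 0.76), neither called. Col4a6 passed with the replicate block (edgeR adjusted p = 0.0113 against 0.155 without it).

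Of the 5 tested chains of collagen VI, 0 were called by edgeR without the block. Col6a2 was just over the threshold, at 278.1, 253.4 and 311.4 CPM in control and 172, 173.3 and 226 CPM in LPS (log2 fold change -0.56, SE 0.14, edgeR adjusted p = 0.0501). With the block it passed (edgeR adjusted p = 0.00809), as did Col6a3, the largest chain of the filament (log2 fold change -1.34, edgeR adjusted p = 0.113 without and 0.00849 with the block). Col6a1, the partner of both in the standard molecule, had -0.11 (edgeR adjusted p = 0.542). The genes Col6a5 and Col6a4, chains made in few tissues, were at 0.209 to 3.14 CPM. At an unadjusted p under 0.05, 2 collagen VI chains passed (Col6a2 and Col6a3), and the share of all genes there was not counted. DESeq2 and the edgeR exact test called 2 lower each, and limma-voom called 1. Of all genes, these tests called 11%, 7.99% and 6.05% lower. Without LPS replicate 3 the edgeR test called Col6a2 (adjusted p = 0.0114) and Col6a3 (0.00821), and without control replicate 3 it called Col6a5 (0.0487 against 0.229).

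Of the 9 FACIT chains, Col14a1 alone passed the edgeR quasi-likelihood test without the block. The edgeR exact test and limma-voom called 2 lower each, Col14a1 and Col9a1, where 7.99% and 6.05% of all genes were called lower. Col22a1, found at tissue junctions such as that of muscle and tendon, was at 2.46, 2.97 and 1.24 CPM in control and 6.33, 5.63 and 2.72 CPM in LPS. The groups overlapped, yet within each replicate number the LPS library was the higher (log2 fold change 1.14, edgeR adjusted p = 0.144 without and 0.0151 with the block). Col9a1, a cartilage FACIT, had 25, 31 and 28 counts in control and 1, 1 and 11 counts in LPS. Its log2 fold change of -2.37 (SE 0.79) did not pass (edgeR adjusted p = 0.0988), and without LPS replicate 3 it did (edgeR adjusted p = 0.00321). Col9a1 passed the filter on low counts through its control counts, so its calls were not taken as support for a fall. Col12a1 and Col16a1, abundant FACITs of soft connective tissue, had -0.27 and 0.11 with adjusted p-values of 0.354 and 0.365. The remaining members, Col9a2, Col9a3, Col19a1 and Col20a1, were at 0.0827 to 7.19 CPM and were not called.

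Among the smaller classes, Col8a1 and Col10a1 accompanied Col8a2 with log2 fold changes of -1.02 (SE 0.53) and -1.31 (SE 0.54) that did not pass (edgeR adjusted p = 0.247 and 0.158), and Col8a1 passed with the block (edgeR adjusted p = 0.00462). Col15a1, the second multiplexin, was at 196.8, 211.3 and 625.7 CPM in control and 71, 79.1 and 446.8 CPM in LPS. In both groups replicate 3 was far above the rest. Col15a1 was called with the block (edgeR adjusted p = 0.0259) and not without it (0.581 in edgeR). Besides Col25a1, the membrane-spanning chains Col13a1, Col17a1 and Col23a1 were not called by the edgeR quasi-likelihood test, while DESeq2 and the edgeR exact test also called Col23a1 lower. Col23a1 was at 26.3, 30.5 and 14.51 CPM in control and 8.35, 7.91 and 13.5 CPM in LPS (log2 fold change -1.26, SE 0.35, edgeR adjusted p = 0.0605), and it was called in 7 of 16 alternatives, among them without control replicate 3 (0.0273) or LPS replicate 3 (0.0346). Col7a1, which forms the anchoring fibrils under epithelia, had -0.18 (edgeR adjusted p = 0.811). Col26a1 and Col28a1 had -1.92 (SE 0.92) and -1.26 (SE 0.58), neither called, and Col26a1 passed with the block (edgeR adjusted p = 0.0367). Col28a1, at 1.09, 2.4 and 6.07 CPM in LPS against 7.4 to 7.92 CPM in control, was called without LPS replicate 3 (edgeR adjusted p = 0.0151).

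With the replicate number as a block, 3 chains were called higher and 13 lower, 38.1% of 42, while 30.3% of all genes were called (15.4% higher and 14.9% lower). All 7 calls of the fit without the block were among these 16. The additions were Col22a1 on the higher side and Col4a6, Col5a1, Col6a2, Col6a3, Col8a1, Col11a1, Col15a1 and Col26a1 on the lower side.

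Several chains differed between replicate numbers in the same direction in both groups. In both libraries numbered 3, against the mean of the other two of the group, 4 chains were at least 1.5-fold higher (Col15a1, Col6a3, Col6a4 and Col7a1) and 9 were lower by that factor (Col4a3, Col4a4, Col4a5, Col4a6, Col6a5, Col8a1, Col11a1, Col13a1 and Col22a1), of 38 chains over the floor in every library. Col15a1 was 3.07-fold higher in control replicate 3 and 5.96-fold higher in LPS replicate 3. Col23a1 went opposite ways, and 24 chains stayed under this limit in at least 1 group. Across the 38 chains the log2 ratios of the groups had a Pearson r of 0.74, a description of chains from the same 6 libraries. Of the chains in these lists, 1 (Col4a5) was called by edgeR without the block. In the same libraries the macrophage markers given above had their highest sum and the neuron markers their lowest sum of the group, and their part in these values was not tested. Without both libraries numbered 3, a comparison of 2 against 2 chosen after these values were seen, 5 chains were called higher and 23 lower of 43 tested. Of all genes, 43% were called there, 22.6% higher and 20.4% lower, beside 53.5% of the chains lower. All 5 chains called lower with every library were among the 23. The 5 called higher were Col5a3, Col24a1, Col22a1, Col6a4 (edgeR adjusted p = 0.0231) and Col19a1 (edgeR adjusted p = 0.0415). Among those called lower, Col26a1 and Col4a4 had the highest adjusted p-values in edgeR (0.0343 and 0.03).

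**Figure D4:**
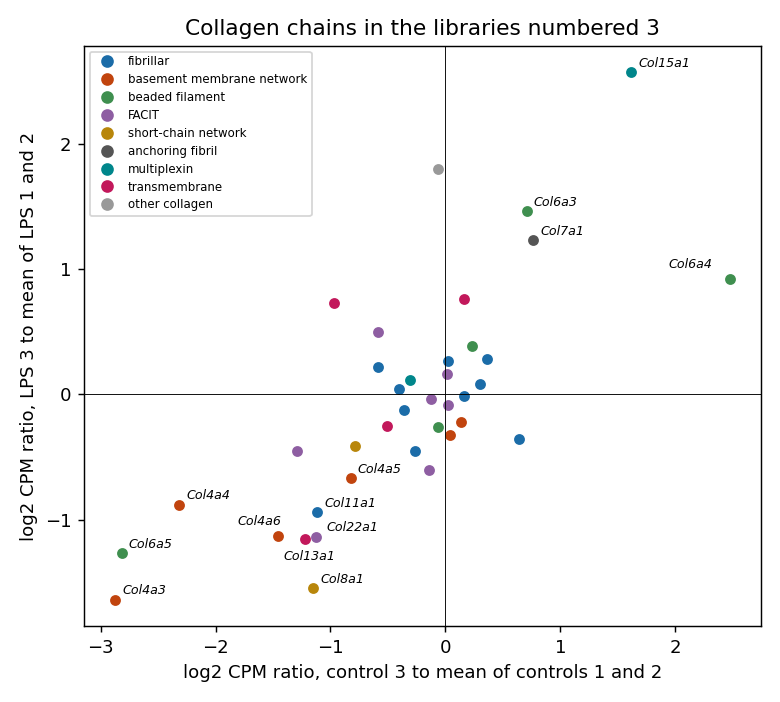
Log2 ratio of each collagen chain in replicate 3 to the mean of replicates 1 and 2, in control (horizontal axis) and in LPS (vertical axis), for the 38 chains over the floor in every library, coloured by class. The 4 named points at the upper right, led by Col15a1, are at least 1.5-fold higher in both libraries numbered 3, and the 9 named at the lower left are lower by that factor.

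Markers of other cells moved with the treatment beside the collagens. All 7 tested smooth muscle markers fell (Acta2, Myh11, Tagln, Cnn1, Des, Actg2 and Lmod1), and the summed level of the 8 measured was 2291 to 2523 CPM in control and 640.4 to 911.5 CPM in LPS. Of 8 mesenchymal markers 1 rose (Pdgfra) and 2 fell (Fbln1 and Tcf21), with sums of 766.2 to 866.1 CPM and 666.9 to 846.8 CPM. Of 9 tested glial markers 1 rose (Fabp7) and 2 fell (S100b and Cdh19), with sums of 735.6 to 1009 CPM and 750.3 to 777.3 CPM. Of 5 mesothelial markers 1 fell (Lrrn4), with sums of 63.2 to 95.4 CPM and 34.6 to 56.4 CPM. Of 12 macrophage markers 1 rose (Adgre1). Endothelial markers had sums of 10.9 to 17.7 CPM and 8.05 to 20.7 CPM. With the replicate block more markers were called: 4 mesothelial markers lower, 4 macrophage markers higher and 3 lower, 2 endothelial markers higher, and 4 mesenchymal markers lower. The macrophage markers called lower with the block were Cd68, Cx3cr1 and Mrc1, with edgeR adjusted p-values of 0.00313, 0.0175 and 0.0124. In such bulk libraries fewer cells of a type and less RNA per cell cannot be told apart, and the part of these markers in the collagen values was not tested.

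Chains of 1 molecule or fibril were also compared as ratios of counts per kb within each library, which do not depend on the scaling. The ratio of Col1a1 to Col1a2, the partners in collagen I, was 3.13 ± 0.248 (SD, n = 3) in control and 3.16 ± 0.367 (SD, n = 3) in LPS (two-sided exact permutation p = 0.8). That of Col4a1 to Col4a2 was 1.39, 1.28 and 1.24 in control and 1.23, 1.13 and 1.09 in LPS. These groups did not overlap, at the smallest p that this test can give with 3 against 3 libraries (exact permutation p = 0.1). The ratio of Col5a1 to Col5a2 was 0.702, 0.719 and 0.761 in control and 0.672, 0.622 and 0.514 in LPS, again without overlap (exact permutation p = 0.1). That of Col6a1 to Col6a2 was 3.5 ± 0.395 and 4.89 ± 1.17 (SD, n = 3; exact permutation p = 0.3), and that of Col3a1 to Col1a1 was 0.509 ± 0.108 and 0.441 ± 0.00975 (SD, n = 3; exact permutation p = 0.4). The 5 ratios had Benjamini-Hochberg adjusted values of 0.25 to 0.8, and none could reach a p under 0.05 in this permutation test.

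The genes that fold, trim, cross-link, bind and cut collagen were read from the same fit. Of 62 such genes in 6 lists, 60 were tested, 11 were higher (18.3%, background 9.09%) and 4 lower (6.67%, background 6.71%), with a median log2 fold change of 0.07. With the replicate block these counts were 18 and 11, where 15.4% of all genes were called higher and 14.9% lower.

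Of 20 genes for the folding and modification of collagen in the endoplasmic reticulum, 5 passed the test and all of these rose. P4ha2, a catalytic subunit of prolyl 4-hydroxylase, which stabilises the triple helix, was at 71.1, 67.8 and 59.5 CPM in control and 615.5, 704.7 and 115.4 CPM in LPS (log2 fold change 2.85, SE 0.66, edgeR adjusted p = 0.0383). The LPS rise was far smaller in replicate 3, and without that library the adjusted p was 0.000144 in edgeR. Leaving out any other library took the P4ha2 call away, with adjusted p-values of 0.0909 (control replicate 3) to 0.145 (control replicate 2) in edgeR. P4hb, the shared subunit of the same enzyme, rose by 0.71 (edgeR adjusted p = 0.0207), Plod3, a lysyl hydroxylase, by 0.71 (0.00527), and Creb3l1, a transcription factor of collagen secretion, by 1.02 (0.0101) on the log2 scale. The fifth was the prolyl isomerase Ppib. Serpinh1, the collagen chaperone HSP47, had 0.16 (edgeR adjusted p = 0.693).

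Of 7 tested genes for the removal of propeptides, Bmp1, the procollagen C-proteinase, rose by 0.52 (SE 0.09, edgeR adjusted p = 0.0161) and was the 1 gene called. Of 6 cross-linking genes 0 were called by edgeR, DESeq2, the edgeR exact test or limma-voom, and 0 had an unadjusted edgeR p under 0.05. Lox, lysyl oxidase, was at 2344, 2313 and 1383 CPM in control and 4069, 4394 and 1879 CPM in LPS (log2 fold change 0.78, edgeR adjusted p = 0.218). Within each replicate number the LPS library was the higher, and Lox passed with the block (edgeR adjusted p = 0.015).

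Of 11 tested proteins that sit on fibrils, 1 rose and 2 fell. More of them were called under other settings: 2 higher and 6 lower with the replicate block and with DESeq2, 1 higher and 5 lower with the edgeR exact test, and 2 higher and 8 lower without both libraries numbered 3. The share of all genes called lower also differed, at 6.71% with all libraries, 14.9% with the block, 11% with DESeq2, 7.99% with the exact test and 20.4% without both libraries numbered 3. Lumican (Lum), a small proteoglycan of fibrils, was at 255.9, 258 and 335.2 CPM in control and 140.3, 147.4 and 224.9 CPM in LPS, without overlap (log2 fold change -0.73, SE 0.22, edgeR adjusted p = 0.0775, and 0.00581 with the block). Decorin (Dcn), a small proteoglycan that spaces fibrils, rose from 1246, 1221 and 1143 CPM to 2345, 2499 and 1888 CPM (log2 fold change 0.9, SE 0.13, edgeR adjusted p = 0.0118). Osteoglycin (Ogn), of the same family, fell from 119.6, 109 and 41.3 CPM to 18.1, 14.6 and 16 CPM (log2 fold change -2.47, SE 0.41, edgeR adjusted p = 0.0161). Tenascin X (Tnxb), which binds fibrils together, fell from 67.1, 92.8 and 50.7 CPM to 16.2, 15.5 and 16.5 CPM (log2 fold change -2.13, SE 0.23, edgeR adjusted p = 0.00407). In none of these did the groups overlap.

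Of 9 collagen receptors, Itga2, a collagen-binding integrin subunit, rose from 8.22, 8.41 and 9.13 CPM to 28.3, 24.6 and 15.9 CPM (log2 fold change 1.42, SE 0.23, edgeR adjusted p = 0.0142). Itga11, the integrin subunit of fibroblasts for fibrillar collagen, fell from 102.5, 100.4 and 93.4 CPM to 53.7, 54.9 and 57.6 CPM (log2 fold change -0.83, SE 0.07, edgeR adjusted p = 0.00202). Mrc2, an uptake receptor for cut collagen, had a smaller fall of 0.49 on the log2 scale (a log2 fold change of -0.49, edgeR adjusted p = 0.0119). The remaining receptors, Ddr1 and Ddr2 among them, were not called by the quasi-likelihood test without the block.

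Of 7 genes for the breakdown of collagen, 3 passed the test and rose. Mmp3, stromelysin, went from 44.2, 42.9 and 20.5 CPM in control to 4312, 5162 and 735.5 CPM in LPS (log2 fold change 6.57, SE 0.9, edgeR adjusted p = 0.00909). Mmp9, a gelatinase, went from 10.2, 9.52 and 10.3 CPM to 875.2, 850.9 and 301.4 CPM (log2 fold change 6.07, SE 0.49, edgeR adjusted p = 0.00176). Mmp13, an interstitial collagenase, went from 11.9, 10.9 and 8.8 CPM to 645.5, 729.5 and 207.2 CPM (log2 fold change 5.65, SE 0.56, edgeR adjusted p = 0.0031). In each of the 3, LPS replicate 3 had the smallest rise and was still far above every control. Mmp2 and Mmp14, which were abundant in both groups, had 0.12 and 0.11 (edgeR adjusted p = 0.428 and 0.648).

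Of the 15 called pathway genes, Plod3, Tnxb, Itga11, Mmp9 and Mmp13 were called whichever library was left out. The others lost the call without at least 1 of control replicates 1 and 2 and LPS replicates 1 and 2, among them Mmp3 (edgeR adjusted p = 0.0526 and 0.0613 without control replicates 1 and 2), Dcn (0.0523 to 0.0745), Ogn (0.0609 to 0.0787), Itga2 (0.0645 to 0.0799), Bmp1 (0.062 to 0.086), P4hb (0.0772 to 0.111), Ppib (0.0721 to 0.0983, and 0.0543 with library size alone), Mrc2 (0.0606 to 0.0799) and Creb3l1 (0.0594 without control replicate 2).

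**Figure D5:**
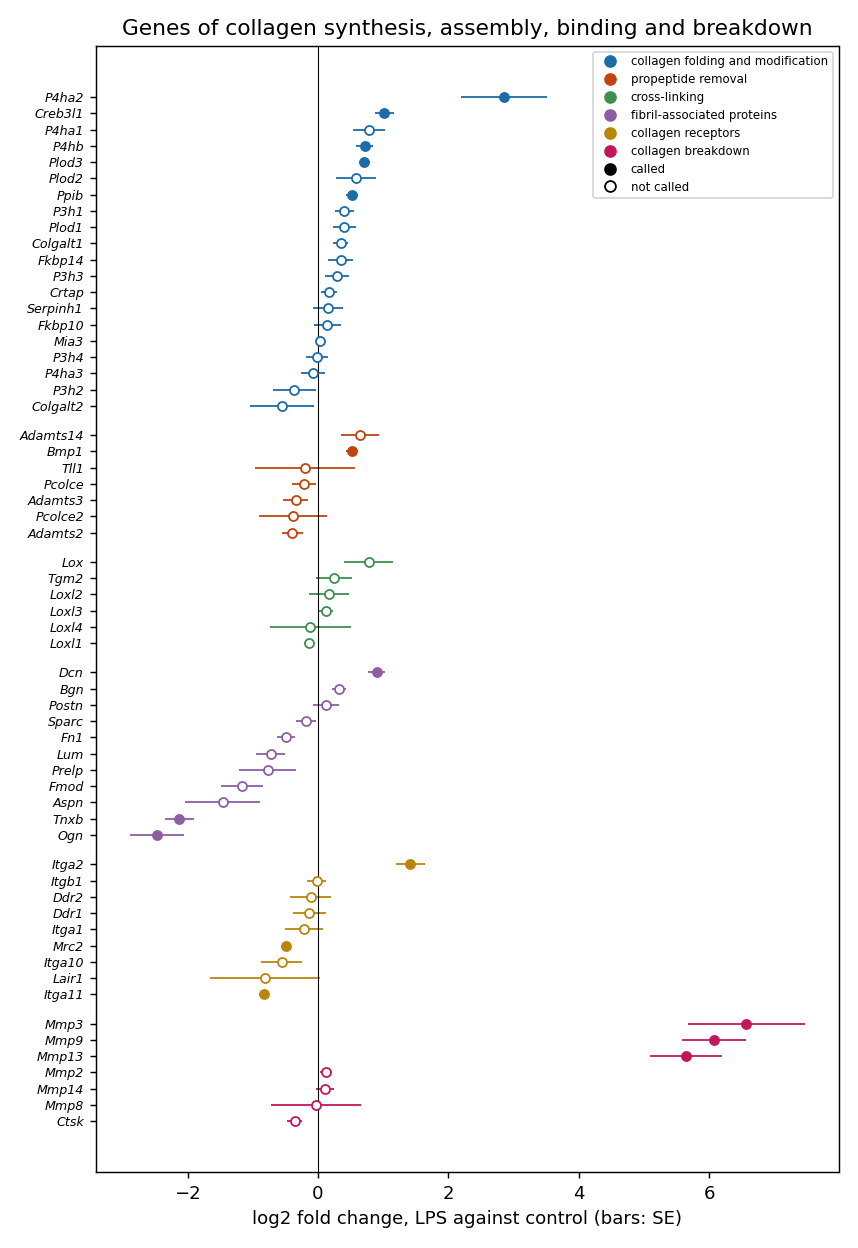
Log2 fold change (LPS against control, horizontal axis; bars are the SE) of the 60 tested genes that fold, trim, cross-link, bind or cut collagen, coloured by list, with filled points for those called at an adjusted p under 0.05. Mmp3, Mmp9 and Mmp13 lie far to the right at 6.57, 6.07 and 5.65, and the folding genes lie mostly right of 0 with 5 of 20 called.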

How the data were processed

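Poly(A) RNA of 3 control and 3 LPS cultures was sequenced from stranded libraries. The deposited values were whole-number counts for each gene, not normalized. Per the submitters' processing notes, the authors used cutadapt 1.15, Bowtie2 2.3.3.1, STAR 2.5.2b, SAMtools 1.5 and featureCounts 1.5.3 with the genome GRCm38. The strand setting and the treatment of reads with several alignments are not given in the sources used here. Replicates were not pooled, and 0 entries held counts without a gene. Col9a3, Col4a3, Col6a4 and Col5a1 share 2.5% to 6.07% of their exon bases with a gene on the other strand, and the called chains share none. A table of the whole series held the same counts and was not used.

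Genes were filtered with filterByExpr (minimum count 10, minimum total 15; 15226 of 46603 left), scaled by TMM and tested with the two-sided quasi-likelihood F-test of edgeR 4.0.16 (R 4.3.3), group as the single term, Benjamini-Hochberg adjustment over all tested genes, threshold 0.05. The SE is the log2 fold change divided by the square root of F. Exon lengths and coordinates come from GENCODE M21, promoter windows from RefSeq. P-values measure the spread between these cultures, whose separate origin the labels do not state.

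The collagen chains and all lists were chosen with earlier results of these data known. The called chains, Col1a1, Col3a1, the 3 highest chains per length and up to 4 examples a class or list were named with the value in every library. Of other chains some were named for a call or a turned sign in a further setting, in part without their levels, and Lumican was added after its values were seen. The replicate numbers were taken to pair the cultures from the data alone, since deviations from group means correlated across genes at 0.558, 0.371 and 0.629 for numbers 1, 2 and 3. Unlike numbers 1 and 2 correlated about as well (0.449 and 0.371), so number 3 alone stood apart. Alternatives were other scalings, filters, tools (DESeq2 1.42.0, limma 3.58.1 voom, the edgeR exact test), the block, each library left out, and, added after seeing the data, both libraries numbered 3 left out. The call of 1 marker gene is not reported here. The fit was tested on simulated data.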

Additional observations from a re-analysis of the deposited data

How the results depend on the processing

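The calls of Col5a3 and Col25a1 held in 16 of 16 alternatives, and those of the other called chains in 10 to 13. With 3 cultures a group, single libraries decided most counts. Chains called higher numbered 2, 1 with library size alone, 1 to 2 when a library was left out and 5 without both libraries numbered 3. Chains called lower numbered 5, 10 with DESeq2, 10 with the edgeR exact test, 13 with the replicate block, 23 without both libraries numbered 3, and 1 to 10 when a library was left out, lowest (1) without the first or second control or the second LPS culture and highest without control replicate 3 (10) or LPS replicate 3 (9). Counts over all genes moved too. Of all genes tested, 6.71% were called lower, 7.99% with the exact test, 11% with DESeq2, 14.9% with the block, 20.4% without both libraries numbered 3, and 0.72% to 9.13% when a library was left out (0.72% without control replicate 2, 6.66% without control replicate 3). The cause was not tested.

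Pathway genes called higher numbered 11, 18 with the replicate block, 3 to 19 when a library was left out (3 without control replicate 2, 19 without LPS replicate 3) and 26 without both libraries numbered 3. Those called lower numbered 4, 7 with upper-quartile factors, 10 with library size alone, 8 with DESeq2, 7 with the exact test, 11 with the replicate block, 2 to 7 when a library was left out and 15 without both libraries numbered 3. Of all genes, 9.09% were called higher, 15.4% with the block, 2.44% without control replicate 2, 12.6% without LPS replicate 3 and 22.6% without both libraries numbered 3. The block took away none of the 7 chain calls.

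Upper-quartile factors and library size alone moved the median of all genes to -0.12 and -0.18. Over all genes they gave 1050 higher and 1589 lower, and 986 higher and 2054 lower, against 1384 and 1022 with TMM. The median of the chains was -0.51 and -0.56 with these scalings and -0.27 for the 35 chains with 10 counts in every library, and it ran from -0.496 to -0.345 when a library was left out. The log2 ratio of the summed collagen CPM was -0.34 and -0.39 with these scalings.

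Among values that did not pass with all libraries, signs turned for a few, of which Col6a4 was called higher without both libraries numbered 3. The log2 ratio of Col1a1 to Col1a2 (0.012) ran from -0.055 without control replicate 3 to 0.113 without LPS replicate 3, and was -0.041 and -0.034 without LPS replicates 1 and 2. Log2 fold changes of Col7a1 ran from -0.72 to 0.133 (0.073 without LPS replicate 1), Col6a4 from -0.112 to 1.644 (-0.035 without control replicate 2 and -0.078 without LPS replicate 3), Col20a1 from -0.61 to 0.168 (0.102 without control replicate 2), Col9a2 from -0.482 to 0.075 and Col1a2 from -0.2 to 0.049 when a library was left out. Col13a1 was 0.01 with limma-voom, ran from -0.324 to 0.393 (without control replicates 3 and 2), and was 0.255 without LPS replicate 3. Col16a1 was -0.045 with library size alone. Col17a1 was -0.054 with upper-quartile factors, -0.107 with library size alone, and ran from -0.087 to 0.246 when a library was left out (-0.021 without LPS replicate 1). Col1a1 was 0.001 without both libraries numbered 3. For chains near 1 CPM the depth limits what can be shown.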
